A study of Mus musculus with 27 samples.

Results

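The measurements described here are those of 8 antiviral effector genes, *Ifit1*, *Ifit2*, *Ifit3*, *Ifi44*, *Rsad2*, *Rtp4*, *Mx1* and *Mx2*, in immortalized mouse embryonic fibroblasts (iMEFs) with a conditional knockout (cKO) of *Setdb1*. The genes were chosen by name, and their FPKM (fragments per kilobase of transcript, scaled to the mapped fragments of the library) was read in all 27 RNA-seq libraries. Assembly placed *Ifit2* and *Ifit3* in 1 locus in at least 1 library of each experiment, so the 8 genes were measured as 7 loci, and counts below are out of 7. They stand among 20557 genes or joined loci in the total RNA experiment, 22164 in the siRNA experiment and 22252 in the inhibitor experiment, of which 9801, 11235 and 11912 passed the filter on low values. All 7 loci passed it in each experiment.

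Type I interferon binds a receptor whose signal leads a transcription factor complex containing Irf9 to an interferon-stimulated response element (ISRE) in the promoters of its targets. Irf7, itself such a target, raises the production of interferon, so that the response can amplify itself. Fibroblasts make interferon β when sensors detect viral nucleic acid. The Ifit proteins bind viral RNA or translation factors and restrain viral protein synthesis. Rsad2 (viperin) is a radical SAM enzyme that makes a chain-terminating nucleotide. Functional Mx1 and Mx2 are dynamin-like GTPases that act on incoming viral nucleoprotein, Mx1 from the nucleus and Mx2 from the cytoplasm in the mouse. Only RNA was measured here, so whether these cells make functional Mx proteins is not known. Rtp4 is a chaperone of receptors in the Golgi apparatus with a zinc finger that binds RNA, and Ifi44 is an interferon-induced protein with a GTP-binding motif.

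All libraries come from 1 recloned iMEF line. *Setdb1*, which encodes an H3K9 methyltransferase, is removed in it once 4-hydroxytamoxifen (4OHT) is added. The untreated and siCtrl groups carry the same undeleted conditional alleles. No group received 4OHT without these alleles, so effects of the treatment itself and of the deletion cannot be told apart. The total RNA experiment holds 3 libraries each of untreated cells, cells given 4OHT for 4 days and collected at day 5, and long-term KO cells kept for more than 2 weeks per the labels. The siRNA experiment holds 2 libraries each of cells with control siRNA (siCtrl), with siRNA against *Dnmt1* (siDnmt1), and with either siRNA plus 4OHT, collected at day 6. *Dnmt1* encodes the maintenance DNA methyltransferase. The inhibitor experiment holds 2 libraries each of untreated cells, cells with 150 nM of the histone deacetylase inhibitor TSA or 1 μM of the MEK inhibitor PD0325901 for 24 h, cells with 4OHT collected at day 6 and cells with 4OHT plus PD0325901. Nothing in the labels says that replicates were separate cultures, so p-values measure the spread between these libraries only.

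Deposited intervals of genes with 1 exon implied roughly 31.4 to 38.9 M (mega) fragments per total RNA library, 13.6 to 15.4 M fragments per siRNA library and 10.8 to 12.5 M fragments per inhibitor library. The FPKM of *Setdb1* sums all its exons and does not isolate the deleted part. In the total RNA experiment it was 5.16 to 5.95 FPKM without 4OHT, 4.16 to 6.52 FPKM under the label 4OHT day 5, and 6.96 to 7.32 FPKM under the label long-term KO, so 4 of the 6 libraries labelled as deleted were above every untreated one. In the siRNA experiment it was 6.48 and 7.40 in siCtrl, and 5.00 to 7.58 in the 4 libraries labelled with 4OHT. In the inhibitor experiment *Setdb1* was listed at 0 in 3 of the 4 libraries labelled with 4OHT and at 5.30 FPKM in the other, 4OHT day 6 replicate 2, against 8.76 and 10.1 FPKM in untreated cells. *Dnmt1* was 10.6 to 12.2 FPKM in the 4 siDnmt1 libraries and 73.4 to 80.5 FPKM in the other 4 of that experiment. Fibroblast markers with a locus of their own summed to 1318 FPKM or more in every library, whereas *Ptprc* and *Spi1*, defining markers of blood cells, did not exceed 0.131 FPKM in any. The whole list of blood cell markers summed to 0.0269 to 0.234 FPKM in total RNA libraries (8 with a locus of their own), 3.30 to 9.20 FPKM in siRNA libraries (9) and 3.81 to 67.5 FPKM in inhibitor libraries (9). Of its members *Csf1r* reached 0.533 FPKM, and *Cd68*, which has its own locus in 18 libraries, had 2.87 to 66.9 FPKM. 1 library stands apart and bears on all results of the siRNA experiment. Between 4OHT + siCtrl replicates 1 and 2, 11.5% of genes tested were at least 2-fold apart, against 2.12 to 6.18% for pairs of libraries of the other 11 groups.

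The promoters of 5 members, *Ifit1*, *Ifit2*, *Ifit3*, *Ifi44* and *Rsad2*, were matched in the RefSeq table (GRCm38.p6), with 2 entries for *Ifit2*. The 250 bases before each start were searched on both strands for an ISRE core (GAAANNGAAA), a GAS core (TTCNNNGAA) and a TATA box (TATAAA). An ISRE core lay in the promoters of *Ifit1*, *Ifit3* and *Rsad2*, in the first 2 as a pair, while it was found in 2.98% of all 32851 promoters of this length. A GAS core lay at -241 to -233 before 1 of the 2 entries of *Ifit2* (7.02% of all promoters). Neither entry of *Ifit2* held a match to the ISRE core. TATAAA lay at -10 to -5 relative to the start of *Rsad2*, on the strand opposite to the gene (12.4% of all promoters). The 3 promoters with an ISRE core are shown because this is the element that the pathway acts on. That of *Ifi44* is shown because none of the 3 motifs was found in it as searched. The search allows exactly 2 bases between the GAAA pair. The *Ifi44* window holds TTTC, the opposite-strand form of GAAA, repeated at other spacings, which this search does not match. The absence of a match thus does not show that a promoter, here that of *Ifi44* or *Ifit2*, lacks such an element. Each line gives the 160 bases before the start, 5′ to 3′ on the strand of the gene, with the ISRE core in capitals, here on the opposite strand in each case.
*Ifit1*, chr19:34640729-34640888, plus strand: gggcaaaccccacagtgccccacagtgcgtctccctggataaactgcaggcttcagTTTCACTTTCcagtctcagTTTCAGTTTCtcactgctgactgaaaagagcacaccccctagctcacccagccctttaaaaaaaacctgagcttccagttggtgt
*Ifit3*, chr19:34583369-34583528, plus strand: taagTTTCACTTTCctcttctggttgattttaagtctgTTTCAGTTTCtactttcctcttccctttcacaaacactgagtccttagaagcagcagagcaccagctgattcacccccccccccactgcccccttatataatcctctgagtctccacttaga
*Rsad2*, chr12:26456453-26456612, minus strand: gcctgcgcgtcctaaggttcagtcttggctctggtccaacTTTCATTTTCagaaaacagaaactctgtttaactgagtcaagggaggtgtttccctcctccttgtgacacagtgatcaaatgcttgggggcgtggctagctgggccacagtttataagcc
*Ifi44*, chr3:151749911-151750070, minus strand: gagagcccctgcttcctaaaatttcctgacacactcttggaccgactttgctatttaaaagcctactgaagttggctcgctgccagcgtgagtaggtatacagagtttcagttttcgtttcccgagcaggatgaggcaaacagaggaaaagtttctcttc
The pair before *Ifit1* ends 76 bases before the start and that before *Ifit3* ends 113 bases before it. These matches describe the letters of the window and no measurement of binding was used here.

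On the build of the files (mm9), the 3 Ifit members lie together on chromosome 19, *Ifit2* from 34625184 to 34651024, *Ifit3* from 34658019 to 34663472 and *Ifit1* from 34715379 to 34724499, with the near copy *Ifit3b* between the last pair, from 34682447 to 34687891. *Mx1* (97668642 to 97684513) and *Mx2* (97757688 to 97782508) are neighbours on chromosome 16, which also holds *Rtp4* (23610005 to 23614308). *Ifi44* lies on chromosome 3 (151393887 to 151412923) and *Rsad2* on chromosome 12 (27127608 to 27141317). Values of *Ifit3* and of its near copy listed apart are uncertain. Of all 50-base windows of the longest annotated transcript of *Ifit3*, 51.5% also occur in the transcripts of *Ifit3b*, which the annotation names *I830012O16Rik*. The same share was 7.14% for *Ifit1*, 6.71% for *Mx2* and 4.77% for *Mx1*, and 0 for *Ifit2*, *Ifi44*, *Rsad2* and *Rtp4*. *Ifit3b* is summed with *Ifit2* and *Ifit3* in the locus called *Ifit2/Ifit3* here.

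The first comparison asks how the 7 loci stood at day 5 of the 4OHT treatment that deletes *Setdb1*. All 7 were called higher at 4OHT day 5 than in untreated cells, and no library of one group overlapped the other. Of these, *Ifi44*, *Rsad2*, *Mx1* and *Mx2* passed the filter only through the day 5 libraries. Of all 9801 genes tested, 2.07% were called higher, and 25% had every day 5 library above every untreated one. The median log2 fold change of the 7 loci was 5.19, against 0.00058 over all genes tested. A gene was called with limma at an adjusted p-value under 0.05 (Benjamini-Hochberg, over all genes tested) and at least a 2-fold change, on log2(FPKM + 0.1), a scale that understates the change of low genes.

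*Ifit1* had 2.49, 2.18 and 1.87 FPKM in the untreated libraries and 83.1, 85.9 and 79.6 FPKM at day 5. The *Ifit2/Ifit3* locus had 17.8, 16.9 and 15.7 FPKM in untreated cells and 150.1, 139.6 and 137.0 FPKM at day 5. The log2 fold change was 5.20 for *Ifit1* (standard error, SE, 0.09, adjusted p = 2.37e-08, limma) and 3.08 for *Ifit2/Ifit3* (SE 0.05, adjusted p = 2.31e-08). *Ifit1* thus started lower than the summed locus and rose by more. In the 1 untreated library that keeps them apart, *Ifit2* had 16.2 FPKM, *Ifit3* 1.16 FPKM and *Ifit3b* 0.358 FPKM, so that *Ifit2* made up nearly all of the untreated level of the locus.

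*Rsad2*, the viperin gene, had 0.151, 0.113 and 0.201 FPKM in untreated cells and 11.4, 11.0 and 11.2 FPKM at day 5, a change of 5.48 on the log2 scale (SE 0.16, adjusted p = 2.60e-07), the highest of the 7 on that scale. In mean FPKM *Ifi44* had the largest ratio, 114.9-fold against 72.3-fold for *Rsad2*. *Rtp4* had 0.471, 0.489 and 0.502 FPKM in untreated cells and 26.2, 24.5 and 19.1 FPKM at day 5, a change of 5.30 on the log2 scale (SE 0.18, adjusted p = 6.52e-07). *Ifi44* had 0.0333, 0.0394 and 0.0620 FPKM in untreated cells and 4.98, 5.33 and 5.16 FPKM at day 5, a change of 5.19 on the log2 scale (SE 0.13, adjusted p = 1.47e-07). These loci were close to silent before the treatment, and the deposited intervals imply from 4.00 to 5.00 fragments for *Ifi44* in an untreated library.

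The GTPase genes were low before and rose by similar amounts. *Mx1* had 0.0991, 0.119 and 0.0671 FPKM in untreated cells and 4.08, 3.75 and 4.79 FPKM at day 5, a change of 4.47 on the log2 scale (SE 0.22, adjusted p = 5.42e-06). *Mx2* had 0.0607, 0.0766 and 0.0754 FPKM in untreated cells and 4.59, 4.47 and 4.56 FPKM at day 5, a change of 4.76 on the log2 scale (SE 0.12, adjusted p = 1.39e-07). Their levels at day 5 overlapped, whereas each of the other loci stood apart from the next in the order *Ifit2/Ifit3*, *Ifit1*, *Rtp4*, *Rsad2*, *Ifi44*, *Mx2*, *Mx1*.

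**Figure D1:**
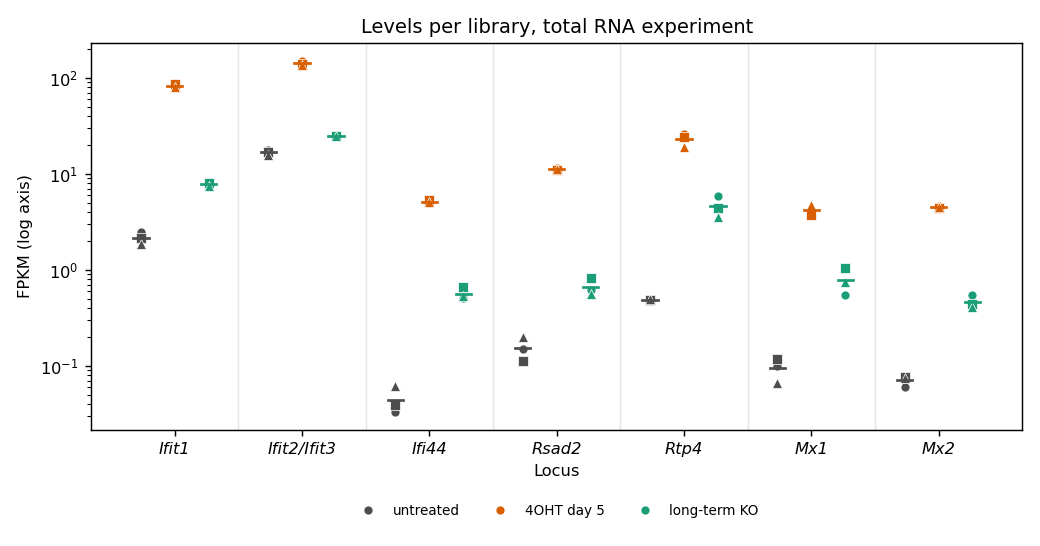
Levels of the 7 loci in each library of the total RNA experiment, in FPKM on a log axis, with circles, squares and triangles for replicates 1, 2 and 3 and a bar for the group mean. All libraries at 4OHT day 5 lie above all untreated libraries, and long-term KO libraries lie between them at every locus.

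Upstream genes of the pathway moved in the same libraries. *Irf7* rose from 0.476 ± 0.0599 to 17.7 ± 1.42 FPKM (mean and SD of 3 libraries each), which is 4.96 on the log2 scale (adjusted p = 8.49e-08, limma). The locus of *Irf9* with *Rnf31* rose by 2.16 and that of *Stat2* with *Pan2* by 1.03 on the log2 scale, each called. *Ifnb1*, the interferon β gene, was listed at 0 in all untreated libraries and had 0.0778 to 0.165 FPKM at day 5, and it did not pass the filter. Of the listed ligands, receptors and transcription factors 4 of 10 tested were called higher, of the sensors and adaptors 5 of 8, and of the other effectors 23 of 25, with none lower in any of these lists. In the same libraries the summed fibroblast markers (8 with a locus of their own) were at 1318 to 1391 FPKM at day 5 against 1616 to 1640 FPKM in untreated cells, and the 7 epithelial and endothelial markers at 4.24 to 5.45 FPKM against 1.29 to 1.63 FPKM, and their part in the result was not tested. In bulk RNA, fewer cells of a type and less RNA per cell cannot be told apart. The medians of the 3 pathway lists were 0.56, 1.82 and 3.85 on the log2 scale, against 5.19 for the 7 loci. The lists and the members were chosen with earlier results of these data known. *Ifi44*, *Rsad2*, *Mx1* and *Mx2* also passed the filter only through the day 5 libraries. The order of these medians is therefore not a result about the 7 loci.

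In every long-term KO library the loci were below all libraries of day 5 and above all untreated ones, as were 33.6% and 40.7% of all genes tested in the comparison with day 5 and with untreated cells. Against untreated cells 6 of 7 loci were called higher, where 7.48% of all genes tested were. Against 4OHT day 5 all 7 were called lower, where 5.85% of all genes tested were. These comparisons share libraries. *Ifi44*, *Rsad2*, *Mx1* and *Mx2* passed the filter on low values only through the day 5 libraries. The count against day 5 is therefore not independent of the filter. The medians of the 7 loci were 1.81 and -2.98, against 0.06 and 0.04 over all genes tested. Against day 5, 4 of 8 fibroblast markers tested were called higher, with sums of 1747 to 1819 FPKM against 1318 to 1391 FPKM. Both epithelial and endothelial markers tested were called lower, and that list summed to 0.413 to 0.649 FPKM against 4.24 to 5.45 FPKM. Their part in the result was not tested.

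*Rtp4* and *Mx1* kept the highest levels relative to day 5, with a log2 fold change of -2.32 for each, and 19.9% and 18.6% of their mean FPKM. *Rtp4* had 5.88, 4.38 and 3.57 FPKM in long-term KO cells, and its log2 fold change against untreated cells was 2.98 (SE 0.18, adjusted p = 3.67e-06, limma). *Rsad2* kept the lowest, with 0.615, 0.825 and 0.557 FPKM or 5.94% of its mean at day 5, and was 1.58 above untreated cells on the log2 scale (SE 0.16, adjusted p = 6.35e-05). With quantile normalization the latter was 0.99 (adjusted p = 0.000451), under the 2-fold limit. The order among the low loci thus changed to *Mx1*, *Rsad2*, *Ifi44* and *Mx2*, each of which overlapped the next in long-term KO libraries.

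*Ifit1* had 7.96, 8.02 and 7.55 FPKM in long-term KO cells, 1.81 above untreated cells on the log2 scale (SE 0.09, adjusted p = 1.34e-06). *Ifit2/Ifit3* had 25.4, 24.9 and 24.7 FPKM, all above the untreated libraries, with a change of 0.57 on the log2 scale (SE 0.05, adjusted p = 3.26e-05) that missed the 2-fold limit. It was the only 1 of the 7 loci not called in this comparison. *Ifi44* (0.506, 0.670 and 0.531 FPKM), *Mx1* (0.545, 1.06 and 0.749 FPKM) and *Mx2* (0.549, 0.439 and 0.413 FPKM) were called as well, with *Mx1* 2.15 and *Mx2* 1.72 above untreated cells on the log2 scale. With a pseudocount of 1, which compresses such low levels, 2 of 7 loci were called against untreated cells, *Ifit1* and *Rtp4*, and 4.82% of all genes tested were called higher. *Irf7* remained 3.11 above untreated cells on the log2 scale (adjusted p = 2.35e-07), and of the other listed effectors 17 of 25 were called higher.

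The siRNA experiment asks whether loss of Dnmt1 moved the same loci, alone and with deletion of *Setdb1*. Its control level was not low. *Rtp4* had 17.6 and 20.5 FPKM in siCtrl libraries and *Ifit1* 28.7 in both, and over the 7 loci the siCtrl mean was 2.12 to 34.1 times that of the untreated cells of the inhibitor experiment. These experiments were sequenced and assembled apart, siCtrl cells were also transfected, and the difference was not tested. *Irf7* showed the same pattern, with 21.2 and 21.5 FPKM in siCtrl libraries and 1.59 and 1.23 FPKM in those untreated cells.

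With siDnmt1 alone all 7 loci were above siCtrl in both libraries, as were 26.9% of all genes tested. In the fit to all libraries of the experiment 0 of 7 were called with limma, where 2.33% of all genes tested were called higher. None of the 7 had an unadjusted p under 0.05, while 8.56% of all genes tested had one and were higher. The count changed with the libraries that set the spread. It was 7 of 7 with only the siCtrl and siDnmt1 libraries in the fit (4.24% of all genes tested), and 6 of 7, all but *Mx1*, without the library labelled 4OHT + siCtrl replicate 2 (4.2% of all genes tested). The latter fit was added after the data were seen. The fold changes were the same in these fits. *Ifit1* had 28.7 and 28.7 FPKM in siCtrl and 75.8 and 72.3 FPKM in siDnmt1 libraries, a log2 fold change of 1.36 (adjusted p = 0.303 with all libraries and 0.000515 with the compared groups alone, limma). *Rsad2* had 1.55 and 1.88 FPKM in siCtrl and 9.44 and 8.23 FPKM in siDnmt1 libraries, a log2 fold change of 2.30 (adjusted p = 0.209 and 0.00167), the highest of the 7.

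*Rtp4* had 50.4 and 49.6 FPKM with siDnmt1, a log2 fold change of 1.39 (adjusted p = 0.378 with all libraries and 0.00157 with the compared groups alone). *Ifi44* went from 4.26 and 3.53 FPKM to 8.64 and 7.40 FPKM, with 1.02 the lowest log2 fold change (adjusted p = 0.717 and 0.0102). The GTPase genes followed, with *Mx1* at 1.96 and 1.92 FPKM in siCtrl and 4.76 and 4.70 FPKM in siDnmt1 libraries, and *Mx2* at 2.50 and 1.96 FPKM and 11.8 and 9.02 FPKM. Their log2 fold changes were 1.24 (adjusted p = 0.542 and 0.00353) and 2.17 (adjusted p = 0.453 and 0.00346), and the difference between these genes was not tested.

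*Ifit2/Ifit3* had 46.6 and 43.6 FPKM in siCtrl and 172.1 and 164.6 FPKM in siDnmt1 libraries, a log2 fold change of 1.90 (adjusted p = 0.318 with all libraries and 0.000406 with the compared groups alone). The siRNA libraries also keep *Ifit2* apart from *Ifit3*, save for 4OHT + siCtrl replicate 2. *Ifit2* had 16.6 and 14.8 FPKM in siCtrl and 28.4 and 25.9 FPKM in siDnmt1 libraries, a log2 fold change of 0.79 in a fit without that library (adjusted p = 0.338). *Ifit3* with *Ifit3b* rose by 2.26 on the log2 scale in that fit (adjusted p = 0.00478), which was added after the data were seen. *Ifit3* with *Ifit3b* had 29.9 FPKM in siCtrl replicate 1, and 143.7 and 138.7 FPKM in the siDnmt1 libraries. In siCtrl replicate 2 *Ifit3* had 18.5 FPKM and *Ifit3b* 10.3 FPKM. *Ifit3* and *Ifit3b* together thus took up most of the sum without 4OHT as well as with it. *Ifit2* had 70.1 FPKM and *Ifit3* with *Ifit3b* 704.6 FPKM in 4OHT + siCtrl replicate 1. In the 4OHT + siDnmt1 libraries *Ifit2* had 241.3 and 72.0 FPKM and *Ifit3* with *Ifit3b* 1678 and 1003 FPKM. Markers of epithelium and endothelium moved with siDnmt1. Their sum was 1.04 and 1.25 FPKM in siCtrl and 55.6 to 56.2 FPKM in siDnmt1 libraries, with *Krt8* at 36.5 FPKM on average. Their part in the levels of the 7 loci was not tested.

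**Figure D2:**
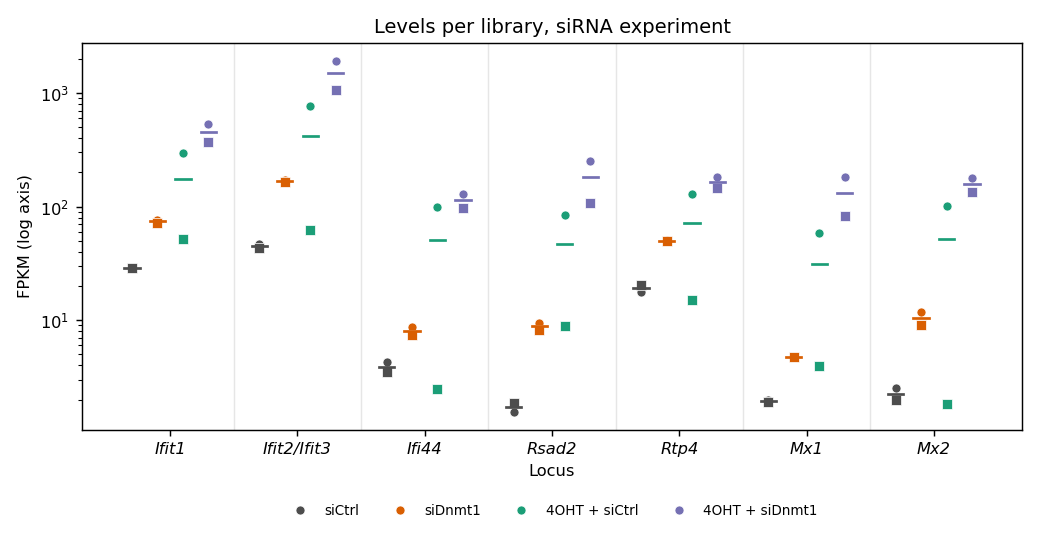
Levels of the 7 loci in each library of the siRNA experiment, in FPKM on a log axis, with circles and squares for replicates 1 and 2 and a bar for the group mean (some points overlap). The 4OHT + siCtrl replicates lie from 5.77-fold to 55.4-fold apart, while the siDnmt1 libraries lie above the siCtrl libraries at all 7 loci.

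The libraries labelled 4OHT + siCtrl disagreed on all 7 loci. *Mx2* had 102.0 FPKM in replicate 1 and 1.84 FPKM in replicate 2, against 2.50 and 1.96 FPKM in siCtrl. *Ifi44* had 100.2 and 2.48 FPKM and *Rtp4* 128.2 and 15.0 FPKM, so that replicate 2 was below both siCtrl libraries at these 3 loci. *Ifit1* (299.3 and 51.9 FPKM), *Ifit2/Ifit3* (774.7 and 62.1 FPKM), *Mx1* (58.2 and 3.96 FPKM) and *Rsad2* (84.3 and 8.87 FPKM) were above siCtrl in both replicates, by 1.38 to 5.17 times in replicate 2. These 4 of 7 loci compare with 34.6% of all genes tested that were above siCtrl in both.

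In this comparison 0 of 7 loci were called with limma, where 2.61% of all genes tested were called higher. At an unadjusted p under 0.05 it was 3 of 7, against 19.3% of all genes tested that were higher at that p, and *Rsad2* came closest (log2 fold change 3.93, adjusted p = 0.05005). Without replicate 2, all 7 were called (5.40% of all genes tested were called higher), with log2 fold changes of 2.75 for *Rtp4* to 5.54 for *Rsad2*, and the lone library left is then assumed to vary like the other groups. Without replicate 1, *Rsad2* alone was called (5.16% of all genes tested). Upstream of the loci, *Irf7* split the same way, with 279.2 and 14.6 FPKM in replicates 1 and 2 against 21.2 and 21.5 FPKM in siCtrl.

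Both replicates were also set against siCtrl in other genes that 4OHT moves. Of genes called at 4OHT day 6 in the inhibitor experiment and tested in the siRNA experiment, those of the members and interferon lists moved at least 2-fold upwards against siCtrl in 42 of 42 cases in replicate 1 and in 5 of 42 in replicate 2. Of the other genes called higher at 4OHT day 6, 58.9% moved so in replicate 1 and 32.6% in replicate 2, and of those called lower 56.2% and 45.2%. The share of all genes tested that moved so was not computed. These shares therefore compare the replicates and do not show whether replicate 2 responded to 4OHT. The gap in these shares was largest for the interferon genes. Their median log2 difference from siCtrl was 3.47 in replicate 1 and -0.07 in replicate 2. It was 1.17 and 0.55 for the other genes called higher, and -1.11 and -0.88 for those called lower. Because the sets differ so in size of change, shares at a fixed 2-fold cut do not compare them on equal terms. *Setdb1* had 7.58 and 5.00 FPKM in replicates 1 and 2.

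**Figure D3:**
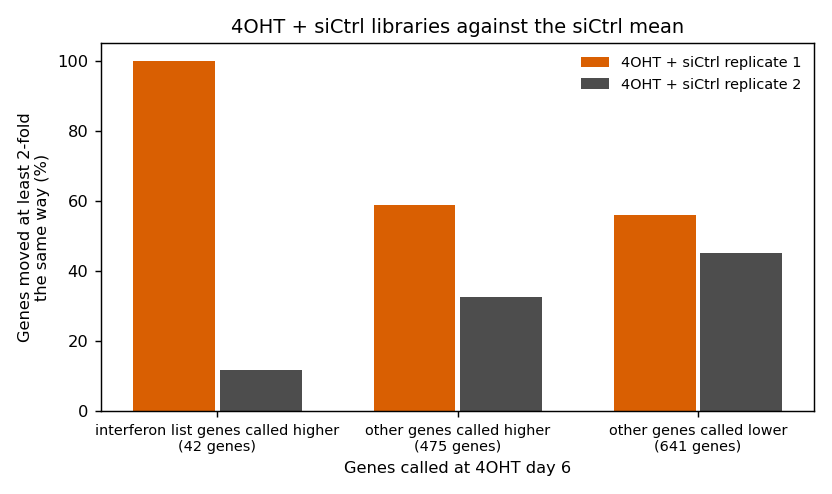
Share of genes called at 4OHT day 6 in the inhibitor experiment that moved at least 2-fold the same way in each 4OHT + siCtrl library against the siCtrl mean, with 1 bar per library. Interferon list genes reached 100% in replicate 1 and 11.9% in replicate 2, and the gap was smaller for the other genes.

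In cells with both 4OHT and siDnmt1 the loci reached their highest levels in the experiment. *Ifit2/Ifit3* had 1919 and 1075 FPKM, *Ifit1* 537.6 and 373.6 FPKM and *Rsad2* 253.2 and 108.7 FPKM. *Rtp4* had 182.0 and 146.7 FPKM, *Mx1* 182.5 and 83.5 FPKM, *Mx2* 179.1 and 135.7 FPKM and *Ifi44* 129.5 and 97.8 FPKM. Of the 7 loci, 6 lay above both 4OHT + siCtrl libraries, as did 20.3% of all genes tested, while for *Ifi44* the lower 4OHT + siDnmt1 library was below 4OHT + siCtrl replicate 1. The deposited intervals are wide for some of these values, from 0 to 13794.5 FPKM for *Ifit3* with *Ifit3b* in 4OHT + siDnmt1 replicate 2 and from 0 to 133.8 FPKM for *Ifit2* with *Ifit3* in 4OHT + siCtrl replicate 2.

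Against 4OHT + siCtrl, 0 of 7 loci were called with limma, where 1.01% of all genes tested were called higher. At an unadjusted p under 0.05 it was 4 of 7, against 8.98% of all genes tested that were higher at that p. The result turned on which 4OHT + siCtrl library was used. The median of the 7 loci was 2.71 on the log2 scale with both, and 7 of 7 were called without replicate 1 (5.59% of all genes tested) but 0 without replicate 2. Against replicate 1 by itself the mean of 4OHT + siDnmt1 was 1.13 to 2.29 times as high. Against siDnmt1 alone, a comparison added after the data were seen, 4OHT + siDnmt1 was 3.29-fold higher for *Rtp4* to 28.1-fold higher for *Mx1* in mean FPKM, and 2 of 7 loci, *Mx1* and *Rsad2*, were called (3.37% of all genes tested). It was 7 of 7 without 4OHT + siCtrl replicate 2 (6.04% of all genes tested), and 0 of 7 when any 1 of the 4 libraries compared was left out.

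The interaction, which asks whether 4OHT moved the loci by a different amount with siDnmt1 than with siCtrl, was not called for any of the 7 loci with limma, and none had an unadjusted p under 0.05. The background was 0.116% of all genes tested called as higher and 6.60% higher at that unadjusted p. The values ran from 0.29 for *Rsad2* (SE 1.39) to 1.78 for *Ifi44* (SE 2.13) on the log2 scale, so differences of several fold either way lie within their error. Without 4OHT + siCtrl replicate 2 all 7 values were below 0, and without replicate 1, 6 of 7 were called above 0 (4.39% of all genes tested).

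The inhibitor experiment repeats the 4OHT treatment, collected at day 6, and adds TSA and PD0325901. All 7 loci were called higher at 4OHT day 6 than in untreated cells, where 5.05% of all genes tested were. Both 4OHT libraries lay above both untreated ones at each, as they did for 34.6% of all genes tested. *Ifi44*, *Rsad2*, *Mx1* and *Mx2* passed the filter only through libraries with 4OHT. The median log2 fold change of the 7 loci was 6.09 and that over all genes tested was 0.0006.

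*Rtp4* had 1.09 and 1.48 FPKM in untreated cells and 68.3 and 126.7 FPKM at day 6, a change of 6.09 on the log2 scale (SE 0.30, adjusted p = 4.00e-05, limma). *Ifit1* had 6.16 and 6.95 FPKM in untreated cells and 150.4 and 315.4 FPKM at day 6, a change of 5.04 on the log2 scale (SE 0.35, adjusted p = 0.000219). *Ifit2/Ifit3* had 22.1 and 20.4 FPKM and 267.0 and 886.1 FPKM, a change of 4.51 on the log2 scale (SE 0.47, adjusted p = 0.00118), the lowest of the 7 as at day 5. Again *Ifit2* set the untreated level, with 18.4 and 17.1 FPKM against 2.49 and 2.46 FPKM for *Ifit3*. In 4OHT day 6 replicate 1, which keeps them apart, *Ifit2* had 32.9 FPKM and *Ifit3* with *Ifit3b* 234.1 FPKM.

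The other 4 loci were below 0.3 FPKM in untreated cells, at 11.0 fragments or fewer per library as the deposited intervals imply. *Mx2* had 0.0957 and 0.0352 FPKM in untreated cells and 17.6 and 77.4 FPKM at day 6, with 7.83 the highest log2 fold change (SE 0.71, adjusted p = 0.000664). *Ifi44* had 0.235 and 0.173 FPKM and 26.6 and 102.2 FPKM, a change of 7.43 on the log2 scale (SE 0.57, adjusted p = 0.000333). *Rsad2* (0.217 and 0.152 FPKM, then 17.8 and 74.5 FPKM) and *Mx1* (0.199 and 0.281 FPKM, then 8.72 and 55.0 FPKM) rose by 7.01 and 6.03 on the log2 scale.

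The day 6 replicates were unequal at all 7 loci. Replicate 2 was 1.86-fold (*Rtp4*) to 6.30-fold (*Mx1*) above replicate 1. *Setdb1* was listed at 0 in replicate 1 and at 5.30 FPKM in replicate 2, values that do not isolate the deleted part. *Ifnb1* was listed at 0 in the untreated, TSA and PD0325901 libraries and had 1.01 and 2.03 FPKM at 4OHT day 6. *Irf7* had 99.5 and 276.6 FPKM there, against 1.59 and 1.23 FPKM in untreated cells. Of the listed ligands, receptors and transcription factors 5 of 12 were called higher, of the sensors and adaptors 7 of 9 and of the other effectors 26 of 26. Of the fibroblast markers 6 of 10 were called lower, and their sum was 2218 to 2238 FPKM against 2695 to 2937 FPKM in untreated cells. Their part in the result was not tested.

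**Figure D4:**
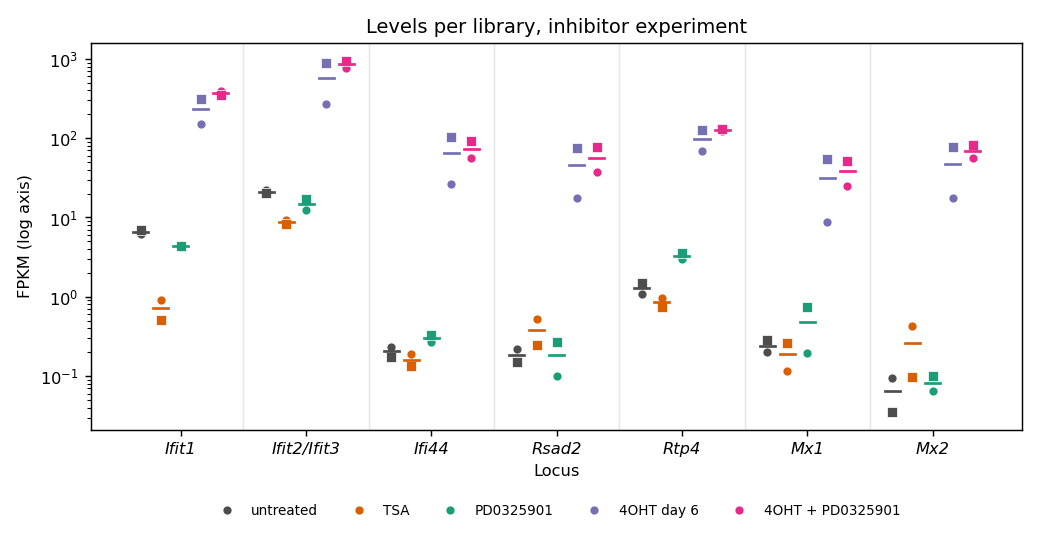
Levels of the 7 loci in each library of the inhibitor experiment, in FPKM on a log axis, with circles and squares for replicates 1 and 2 and a bar for the group mean. Libraries with 4OHT lie above all others at every locus, and *Ifit1* is lowest in the TSA libraries.

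TSA lowered *Ifit1*, and no other of the 7 loci was called, where 12.7% of all genes tested were called lower. A count of 1 of 7 is near that share and is not a result about the 7 loci as a group. *Ifit1* had 6.16 and 6.95 FPKM in untreated cells and 0.923 and 0.507 FPKM with TSA, a change of -3.08 on the log2 scale (SE 0.35, adjusted p = 0.000258, limma). *Ifit2/Ifit3* had 9.27 and 8.29 FPKM with TSA, below both untreated libraries, with a change of -1.27 on the log2 scale (SE 0.47, adjusted p = 0.0526). The untreated, TSA and PD0325901 libraries keep *Ifit2* apart from *Ifit3*. In a fit to these alone, added after the data were seen, *Ifit2* fell by 1.20 on the log2 scale (adjusted p = 0.00356), from 18.4 and 17.1 FPKM to 7.66 and 7.73 FPKM (the latter with a deposited interval of 0 to 112.8 FPKM), and *Ifit3* with *Ifit3b* fell by 1.74 (adjusted p = 0.0206).

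The other 5 loci were low in both groups and none was called. *Rtp4* had 0.954 and 0.743 FPKM with TSA, a log2 fold change of -0.54 (adjusted p = 0.158). *Mx2* had 0.425 and 0.0982 FPKM and *Rsad2* 0.526 and 0.243 FPKM with TSA, above the untreated libraries, with log2 fold changes of 0.99 and 0.71 (adjusted p = 0.267 and 0.415) that turn to -0.85 and -1.35 with quantile normalization. That normalization also called *Rtp4* (-2.22, adjusted p = 0.000590, limma) and *Ifi44* (-1.78, adjusted p = 0.0295) lower, where 17.5% of all genes tested were, so the direction of *Mx2* and *Rsad2* and the count depend on the scaling. *Ifi44* (0.188 and 0.134 FPKM) and *Mx1* (0.116 and 0.262 FPKM) overlapped the untreated libraries. TSA moved much of the transcriptome. Of the genes called with TSA 59.9% were higher, and with quantile normalization 48.7%. *Irf7* rose with TSA to 8.11 and 7.89 FPKM, a log2 fold change of 2.43 (adjusted p = 0.00160), so the factor and *Ifit1* were called in opposite directions. *Cd68* and *Epcam*, from the lists of blood and epithelial markers, had 63.7 and 28.7 FPKM on average with TSA, and their part was not tested.

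PD0325901 alone moved 1 of the 7 loci. The header of the file of its replicate 2 carries the title of the 4OHT + PD0325901 group and a description that names PD0325901 only, and the sample's label was followed. *Rtp4* had 2.97 and 3.57 FPKM with the inhibitor, a change of 1.29 on the log2 scale (SE 0.30, adjusted p = 0.0283), where 2.99% of all genes tested were called higher. The call was lost when any 1 of the 4 libraries compared was left out, with a pseudocount of 1 (adjusted p = 0.0616) or without the filter on low values (adjusted p = 0.0967). *Ifit1* had 4.29 and 4.41 FPKM and *Ifit2/Ifit3* 12.3 and 17.2 FPKM, below both untreated libraries, with log2 fold changes of -0.58 and -0.54 (adjusted p = 0.322 and 0.495). The other 4 had log2 fold changes from -0.06 for *Rsad2* to 0.57 for *Mx1*. *Irf7* was called higher, at 4.75 and 4.02 FPKM (log2 fold change 1.58, adjusted p = 0.0421).

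Cells with 4OHT and PD0325901 had levels near those of the higher 4OHT day 6 library. *Ifit1* had 388.9 and 351.0 FPKM, above both libraries of 4OHT day 6, and *Ifit2/Ifit3* 777.5 and 942.6 FPKM. *Rtp4* had 122.5 and 129.1 FPKM, *Ifi44* 55.6 and 92.2 FPKM, and *Mx2* 57.0 and 81.0 FPKM. *Rsad2* had 37.0 and 76.9 FPKM and *Mx1* 25.2 and 52.3 FPKM. All loci but *Ifit1* were higher in replicate 2, as all 7 were at 4OHT day 6.

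Against 4OHT day 6, 0 of 7 loci were called with limma, where 2.29% of all genes tested were called higher. None of the 7 had an unadjusted p under 0.05, while 13% of all genes tested had one and were higher. The log2 fold changes ran from 0.43 for *Rtp4* (SE 0.30) to 0.88 for *Mx2* (SE 0.71). Without 4OHT day 6 replicate 1 the values of 6 loci, all but *Ifit1*, turned below 0. Against PD0325901 alone, a comparison added after the data were seen, all 7 were called higher, where 3.35% of all genes tested were. The log2 fold changes ran from 5.23 for *Rtp4* to 8.55 for *Mx2*. *Ifi44*, *Rsad2*, *Mx1* and *Mx2* passed the filter only through libraries with 4OHT, so this count is not independent of the filter. The interaction of 4OHT and PD0325901 was called for none of the loci with limma. *Ifit1* alone had an unadjusted p under 0.05 (1.34, SE 0.50, adjusted p = 0.260), and *Rtp4* had the only value below 0 (-0.86, SE 0.42, adjusted p = 0.382). The background was 0.512% of all genes tested called as higher and 10.7% higher at that unadjusted p.

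**Figure D5:**
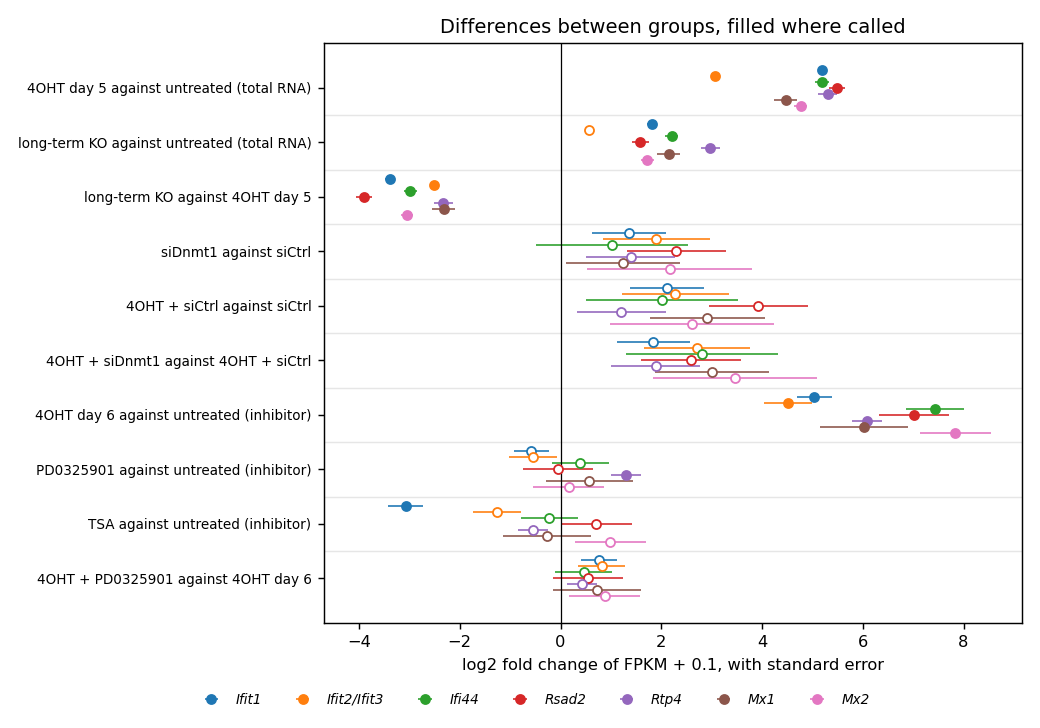
log2 fold changes of FPKM + 0.1 for the 7 loci in the 10 comparisons, with standard errors from limma and filled points where the locus was called. All loci lie above 0 at 4OHT day 5 and day 6, the errors are wide in the siRNA experiment, and *Ifit1* is separate from the others with TSA.

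Across all 27 libraries the 7 loci varied together. With each locus centred on the control of its experiment on the log2 scale, the correlation between 2 loci ran from r = 0.84 (*Ifit2/Ifit3* with *Rtp4*) to r = 0.98 (*Ifi44* with *Mx2*) over 21 pairs. These are descriptions, since the libraries share treatments. Among 8540 other genes tested in all 3 experiments, those most like the mean of the 7 loci were the locus of *Gbp3* with *Gbp7* (r = 0.99), *Ddx60* (r = 0.99), *Isg15* (r = 0.98), *Oas2* (r = 0.98) and *Apol9a* (r = 0.98). The gene most like *Ifit1* was *Parp14*, that for *Ifit2/Ifit3* and for *Mx1* was *Ddx60*, that for *Ifi44* and *Mx2* was the *Gbp3* locus, that for *Rsad2* was *Ifih1*, and that for *Rtp4* was *Oasl2*, each with r = 0.97 or above. *Ifit2/Ifit3* had the highest mean FPKM of the 7 loci in all 12 groups, and *Ifit1* was next in 11 of them, the exception being TSA, where *Rtp4* and *Ifit1* overlapped.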

How the data were processed

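TopHat2 2.0.12 was the authors' aligner (mm9), with 1 position kept for a multi-hit read. Cufflinks then assembled transcripts library by library, guided by RefSeq. The deposited values are FPKM per assembled locus, with confidence intervals. The authors' deposited tables of fold changes and p-values were not used. In the total RNA files loci have no gene names, so a locus was given to a gene where it covers 95% of it. In the named libraries this gave the same locus for at least 99.9% of genes. Genes that share a locus in any library were joined, and loci of a gene were summed.

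Fits used limma 3.58.1 (R 4.3.3), 1 for each experiment with all its groups, of log2(FPKM + 0.1), with trended variance and two-sided tests, for genes with at least 1 FPKM in 3 (total RNA) or 2 libraries. Calls need an adjusted p-value under 0.05 and, except for the 2 interactions, a 2-fold change. For single values an exact permutation test cannot go below 0.1 (groups of 3) or 0.333 (groups of 2). The fit was tested on simulated data with independent normal noise. That simulation held no library that stands apart and changed no gene of low mean level, so it does not bear on those cases. The members, pathway lists and tests were chosen with earlier results of these data known. Besides the members, the genes named are pathway, marker and targeted genes from those lists and those most like the members. Figures used Python 3.11.15 and matplotlib 3.10.9.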

Additional observations from a re-analysis of the deposited data

How the results depend on the processing

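For 4OHT day 5 and 4OHT day 6 against untreated cells, and for long-term KO against the former, all 122, 104 and 122 values of single loci under the alternatives kept their direction and side of the threshold. With a filter of 5 FPKM 4 loci were tested. Of these, 4 were called at 4OHT day 5, where 1.51% of all genes tested were called higher. In long-term KO against day 5, 4 were called lower (4.75% of all genes tested). In long-term KO against untreated cells 3 were called (5.76% of all genes tested were called higher). In that last comparison, 2 were called with a pseudocount of 1 (4.82%). With only its groups in the fit, 2 of the 3 still tested were called (7.37%). With 4OHT + siCtrl against siCtrl, 1 was called with a filter of 5 FPKM (2.29% of all genes tested were called higher). When joined genes were left out it was 1 (2.6%), an alternative chosen after seeing the data that gives *Ifit2/Ifit3* no value. With siDnmt1 against siCtrl, 7 were called with only its groups in the fit (4.24% higher). With TSA, 2 were called with median-ratio scaling, where 14.5% of all genes tested were called lower. It was 2 of the 3 loci then tested with only its groups (13.1% lower) and 2 with the replicate block (12.8% lower). With quantile normalization it was 3 (17.5% lower). With PD0325901, 0 were called with a pseudocount of 1 (2.11% higher) and 0 without the filter (1.09% higher). The replicate number as a block changed no other count. The labels do not say that a number marks a shared culture. Deviations of same-numbered libraries correlated at -0.05 to 0.15 in the total RNA and -0.05 to 0.04 in the siRNA experiment, and in the inhibitor experiment at -0.02 to 0.04 except among PD0325901, 4OHT day 6 and 4OHT + PD0325901 (0.21 to 0.27). A replicate block in a fit to these 3 groups, chosen after seeing the data, called 0 loci in 4OHT + PD0325901 against 4OHT day 6 and all 7 against PD0325901. In that fit too *Ifi44*, *Rsad2*, *Mx1* and *Mx2* passed the filter only through libraries with 4OHT. The cause of these changes was not tested, apart from the fewer loci tested.

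Leaving out 1 library at a time, the count ran from 0 to 7 in 4OHT + siCtrl against siCtrl and in 4OHT + siDnmt1 against 4OHT + siCtrl, from 0 to 6 in siDnmt1 against siCtrl and in the interaction of 4OHT and siDnmt1, from 0 to 1 in 4OHT + PD0325901 against 4OHT day 6 and in the interaction with PD0325901, and was 0 throughout with PD0325901 alone. The log2 fold changes that turned then ran, in 4OHT + PD0325901 against 4OHT day 6, from -0.51 to 1.43 (*Ifi44*), -0.050 to 1.68 (*Ifit2/Ifit3*), -0.60 to 2.04 (*Mx1*), -0.19 to 1.94 (*Mx2*), -0.48 to 1.58 (*Rsad2*) and -0.011 to 0.88 (*Rtp4*), and in 4OHT + siCtrl against siCtrl from -0.62 to 4.66 (*Ifi44*), -0.26 to 5.46 (*Mx2*) and -0.34 to 2.75 (*Rtp4*). With PD0325901 they ran from -0.19 to 1.34 (*Mx1*), -0.10 to 0.43 (*Mx2*) and -0.49 to 0.38 (*Rsad2*), and with TSA from -0.64 to 0.10 (*Mx1*). In the interaction with PD0325901 they ran from -0.90 to 1.03 (*Ifi44*), -1.17 to 1.47 (*Mx1*), -0.35 to 1.78 (*Mx2*) and -0.43 to 1.64 (*Rsad2*), and in that with siDnmt1 from -0.86 to 4.42 (*Ifi44*), -0.78 to 1.74 (*Ifit1*), -1.01 to 2.63 (*Ifit2/Ifit3*), -0.16 to 3.69 (*Mx1*), -1.55 to 4.16 (*Mx2*), -1.32 to 1.91 (*Rsad2*) and -1.04 to 2.05 (*Rtp4*). *Ifi44* in the PD0325901 interaction was also -0.041 with median-ratio scaling, -0.075 with a pseudocount of 0.01 and -0.074 with quantile normalization, and *Rsad2* with PD0325901 was 0.11 with quantile normalization, which gave *Mx2* -0.85 and *Rsad2* -1.35 with TSA. Depth limits the control levels of *Ifi44*, *Rsad2*, *Mx1* and *Mx2*, and near copies limit *Ifit3*.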
